A study of Mus musculus with 8 samples.

Results

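The endothelin family comprises 3 peptide ligand genes, 2 receptor genes and 2 converting enzyme genes: Edn1, Edn2 and Edn3, Ednra and Ednrb, and Ece1 and Ece2. It was followed through ureteric bud cells of newborn mice with and without Dot1. The 7 genes were taken from all non-control probes whose systematic name is a RefSeq transcript of one of them, out of 20887 genes on the array that could be named. They are read by 8 probes at 17 spots, 10 of these spots belonging to the Edn1 probe. The family was chosen by the log2 differences between KO and WT of these same arrays, that of Edn1 above all, so its differences are described here and not tested.

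Endothelins are made as long precursors, trimmed by furin-type proteases and cut into the active peptide by endothelin-converting enzymes. The peptides act through A and B receptors, which couple to heterotrimeric G proteins. In the collecting duct, which forms from the ureteric bud, endothelin-1 is known as a local signal that limits sodium and water reabsorption, mainly through the B receptor. The A receptor is best known from vascular smooth muscle and other mesenchymal cells, and both endothelin-1 and the B receptor are also prominent in endothelium.

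The samples were GFP-positive ureteric bud cells sorted by flow cytometry from kidneys of C57BL/6 mice on postnatal day 0. Both groups share strain, age and sort: 4 samples were wildtype (WT) and 4 were DOT1-null (KO), in which Dot1 was deleted from Hoxb7-positive cells. The model therefore concerns the cells in which Hoxb7 is active, and the sources used here do not give the transgene that carries GFP, nor which animals or litters a sample came from. Spread between samples, which may be partly technical, is what the p-values are measured against. Each sample was labelled with Cy5 and hybridised on its own 2-colour array against a Cy3 reference, which was always RNA of WT replicate 3. The array of WT 3 therefore carried the same RNA in both channels and no dye was swapped. Values below are log2 ratios of Cy5 to Cy3 after background correction and loess, unless they are called raw signals.

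The arrays were unequal. Cy5 was well above background at 52.4% to 56.2% of spots on the WT arrays, at 59.1% to 68.9% on KO 1, KO 2 and KO 4, and at 95.2% on KO 3, where the scanner software marked 7665 spots as outlying against 175 to 216 elsewhere. All 16 markers of ureteric bud epithelium were above background on all WT arrays and at least 15 were on each KO array. Being above background does not compare their levels. Their log2 differences between KO and WT ran from -0.82 for Wnt11 to 0.79 for Krt18, 7 above 0 and 9 below, and 0 were called. Hoxb7 had -0.71 ± 0.08 (SE, n = 4 per group; limma adjusted p = 0.0646). Genotype and position on the slide cannot be told apart, since each genotype filled a row of its own. Dot1l, which encodes a methyltransferase of histone H3, had a log2 difference between KO and WT of 0.18 ± 0.11 (SE, n = 4 per group; limma adjusted p = 0.340), or -0.18 with median centring in place of loess, which moved the median of all probes to -0.28 and left Dot1l 0.10 above it. The sources used here do not say whether the Dot1l probe reads the deleted part.

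Of the 8 probes, 7 from 6 genes passed the filter on dim probes, and that of Edn3 did not. In the limma fit over all 31329 probes that passed, 0 of the 7 were called at an adjusted p under 0.05, where 0.00638% of all probes were called. Their adjusted p-values ran from 0.0979 to 0.957. At an unadjusted p under 0.05 there were 7487 probes, 23.9% of those tested, among them the probes of Edn1 and Ece1.

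**Figure D1:**
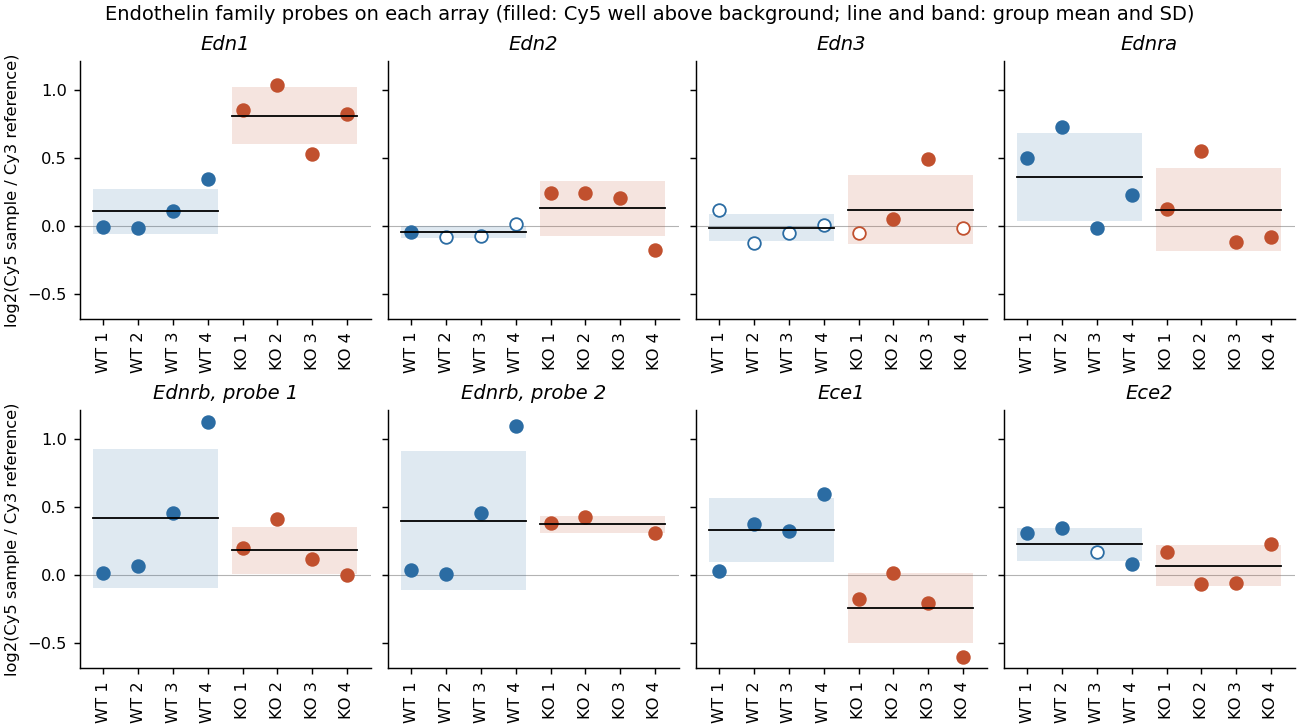
Log2 of sample (Cy5) over WT 3 reference (Cy3) for each of the 8 endothelin family probes, with 1 point per array, WT in blue and KO in orange. Open points are not well above background, lines are group means and bands are 1 SD; the KO arrays lie above all WT arrays for Edn1 and below all WT arrays for Ece1, and the groups overlap for the other 6 probes.

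Edn1 encodes the precursor of endothelin-1. Its log2 ratio, as processed here, was higher on every KO array than on any WT array. The log2 ratios of Edn1 (NM_010104) were -0.01, -0.02, 0.11 and 0.34 on WT 1 to WT 4. KO 1 to KO 4 gave 0.86, 1.04, 0.53 and 0.82. The lowest KO value, on KO 3, was above the highest WT value, on WT 4. The group means were 0.11 ± 0.17 in WT and 0.81 ± 0.21 in KO (SD, n = 4 each), a log2 difference of 0.71 ± 0.13 (SE), or 1.63-fold, with a limma adjusted p of 0.0979 over all probes. Among all probes with 8 values, 3.58% had every KO array above every WT array, so Edn1 was 1 of 1020 such probes. A difference of larger size in either direction was found at 3.39% of the probes tested.

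The Edn1 probe is printed at 10 places on the array, which shows how well a single hybridisation reads it. The raw Cy5 signal, as the median of the 10 spots, was 161, 144, 177 and 199 on WT 1 to WT 4. Across KO 1 to KO 4 it reached 426, 516, 746 and 417, over a local background of 62.5 to 77.8. The reference in Cy3 gave 41.0, 47.0, 43.5 and 40.3 on the WT arrays and 42.0, 42.5, 77.5 and 38.5 on the KO arrays, over a background of 21.0 to 26.5. The reference signal was thus alike on 7 arrays, and KO 3 was brighter in both channels, as it was over the whole array, with a median Cy5 signal of 636 against 93.5 to 107.5 on WT. After normalisation between arrays the Edn1 level on KO 3 was the lowest of all 8 in both channels, at 6.87 in Cy5 and 6.34 in Cy3 on the log2 scale. The highest WT values were 7.45 in Cy5 and 7.11 in Cy3, so the higher Edn1 value of KO 3 is one of the ratio and not of normalised Cy5. At 10 of 10 spot positions the KO values used lay above the WT values, with differences of 0.60 to 0.80, and within an array the spots had an SD of 0.075 to 0.139. Spots of one array share their RNA and are not replicates of a genotype.

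**Figure D2:**
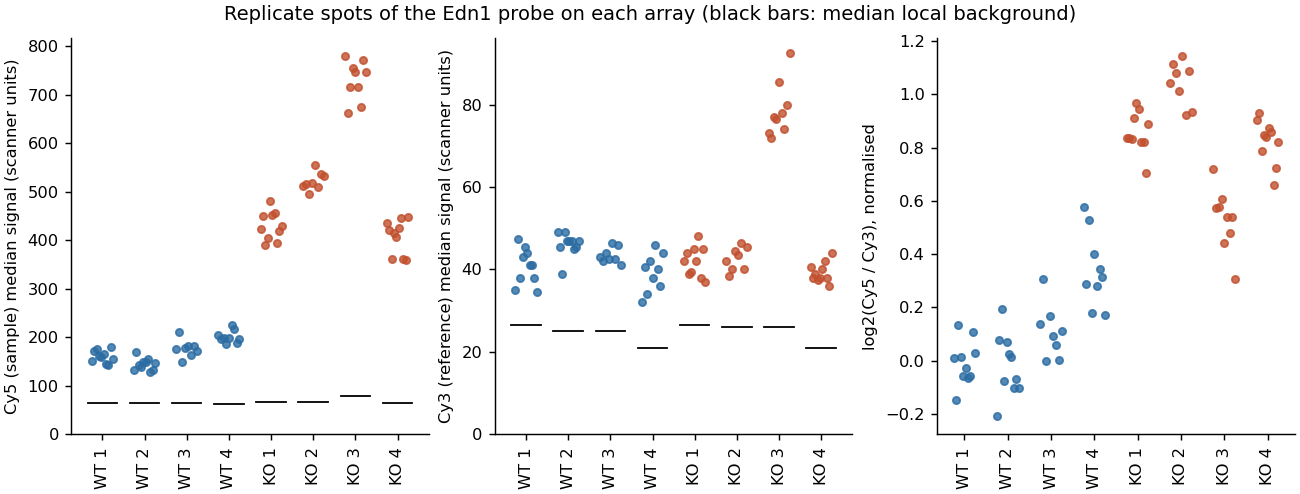
The 10 spots of the Edn1 probe on each array, as raw Cy5 signal, raw Cy3 signal (both in scanner units, linear axes) and normalised log2 ratio, WT in blue and KO in orange, without spots marked as outliers. The raw sample signal is higher on all 4 KO arrays, of which KO 3 was bright over its whole surface, and the reference signal is between 38.5 and 47.0 at the median on all arrays but KO 3.

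The size of the Edn1 difference depended on how its dim reference channel was treated, and its sign did not. With the scanner's own ratio the log2 difference was 1.22, or 2.34-fold, and with a normexp offset of 0 it was 1.09. The offset of 50 used here draws ratios of dim spots towards 0 by construction. With the scanner's ratio the Edn1 values of the groups met, with KO 3 at 0.76 below WT 4 at 0.90, and with median centring KO 3 stood at 0.65 and WT 4 at 0.88. When any 1 array other than KO 2 was left out, the limma adjusted p of Edn1 lay between 0.0780 (without KO 3) and 0.254 (without WT 2). Without KO 2 the Edn1 difference was 0.63 with a limma adjusted p of 0.00874. Edn1 and Ece1 were the 2 members called in that fit, in the fit without KO 2 and KO 3, and in the fit with array weights, and these called 21.3%, 23.7% and 16.4% of all probes. Edn1 itself was highest of all arrays on KO 2.

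The stretch upstream of Edn1 is shown because Edn1 had the largest difference of the family and because genes known to act on its transcription are read below. It holds the 250 bases before the RefSeq start at chr13:42301226-42301475 (GRCm38.p6, plus strand), and capitals mark the one match to any of 5 motifs searched.
Edn1 upstream: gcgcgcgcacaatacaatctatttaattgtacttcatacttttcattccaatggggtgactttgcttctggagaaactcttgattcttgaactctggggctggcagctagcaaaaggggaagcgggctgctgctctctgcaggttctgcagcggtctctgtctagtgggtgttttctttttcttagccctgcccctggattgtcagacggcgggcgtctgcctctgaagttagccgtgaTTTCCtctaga
GATA factors were searched as GATAA and the AP-1 factors as TGANTCA. The hypoxia response element was searched as ACGTG, the TATA box as TATAAA and the core of the NFAT site as GGAAA. Both strands were read, and with a single match there is no overlap between motifs in this window. The match is the NFAT core on the minus strand, beginning 11 bases before the start on the printed strand, and 55.6% of 32851 RefSeq upstream stretches of this length hold that motif. The other 4 motifs occur in 6.75% to 22.6% of these stretches, and their letters are not in this window. No binding or histone mark was measured here.

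Edn2 encodes endothelin-2, a ligand of both receptors. Its signal was close to background in WT. Edn2 (NM_007902) had log2 ratios of -0.05, -0.08, -0.07 and 0.02 on WT 1 to WT 4, and only WT 1 was well above background in Cy5. KO 1 to KO 4 gave 0.25, 0.24, 0.21 and -0.17, all well above background in Cy5. The probe thus passed the filter on dim probes through the 4 KO arrays, with 1 WT array beside them. Its reference channel was well above background on KO 3 only, so most of these ratios had a denominator near background. The groups overlapped, because KO 4 was the lowest of the 8 arrays and the other KO arrays were the highest. The difference was 0.18 ± 0.11 (SE, n = 4 per group; limma adjusted p = 0.338). Its raw Cy5 signal was 76.0 to 90.0 on WT and 103, 149, 1007 and 90.0 on KO 1 to KO 4, and KO 3 was bright over the whole array.

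Edn3 encodes endothelin-3, which acts chiefly through the B receptor. Its probe (NM_007903) was well above background on KO 2 and KO 3 alone and on none of the WT arrays. The log2 ratios of Edn3 were 0.11, -0.12, -0.05 and 0.01 on WT 1 to WT 4. For KO 1 to KO 4 they were -0.05, 0.05, 0.50 and -0.01. The value of KO 3 stands apart from the other 7, and the groups overlap. A floor was set for each WT array at its lowest signal read as above background, or at its Edn3 value where that was higher. The KO mean of normalised Cy5 for Edn3 was 1.07-fold above the mean WT floor, in one channel with no dye swap. That mean held KO 1 and KO 4, which were not above background, so it gives no lower bound on a difference. It rested on KO 3: without that array the KO mean was 6.18 on the log2 scale, under the WT floor of 6.26. Raw Cy5 for Edn3 was 65.0 to 74.0 on WT, and 71.0, 95.5, 758 and 66.0 on KO 1 to KO 4.

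Ednra encodes the endothelin A receptor. Ednra (NM_010332) had log2 ratios of 0.50, 0.73, -0.01 and 0.23 on WT 1 to WT 4. On KO 1 to KO 4 the ratios were 0.12, 0.55, -0.12 and -0.08. The groups overlapped, with WT 1, WT 2 and KO 2 high and KO 3, KO 4 and WT 3 low. The mean was 0.36 ± 0.32 in WT and 0.12 ± 0.31 in KO (SD, n = 4 each), a difference of -0.24 ± 0.19 (SE; limma adjusted p = 0.459).

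Markers of stroma and smooth muscle were high on the arrays where Ednra was high, but did not follow its order on the others. The summed normalised Cy5 signal of 14 such markers was 22368, 21315, 9670 and 18200 on WT 1 to WT 4. On KO 1 to KO 4 the sum was 7264, 21737, 7821 and 13149. The 4 arrays with the highest Ednra ratios, WT 2, KO 2, WT 1 and WT 4, were the 4 with the highest sums. Among the other arrays, KO 1 had the lowest sum with an Ednra ratio of 0.12, and KO 4 the highest with -0.08. Of the 14 markers, 13 had a negative difference between KO and WT, with a median of -0.40 against -0.02 over all probes tested, and 0 were called. Between 12 and 14 of them were above background on each array, and Des and Foxd1 were below it on 2 arrays each and Ren1 on 1. Among these genes the collagen gene Col1a1 had a difference of -0.57 ± 0.39 and the smooth muscle actin gene Acta2 -0.49 ± 0.30 (SE, n = 4 per group). Their part in the Ednra values was not tested, and in sorted bulk RNA a smaller share of such cells and less RNA per cell cannot be told apart.

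Ednrb encodes the endothelin B receptor and was read by 2 probes. It varied more among WT arrays than between the groups. The first probe of Ednrb (NM_007904) gave log2 ratios of 0.02, 0.06, 0.46 and 1.13 on WT 1 to WT 4. On KO 1 to KO 4 it gave 0.20, 0.41, 0.12 and -0.0003. WT 4 stood above all other arrays and the KO arrays lay within the WT range except KO 4, at its lower edge. The second probe gave 0.04, 0.01, 0.46 and 1.10 on WT 1 to WT 4. On KO 1, KO 2 and KO 4 the second probe gave 0.38, 0.43 and 0.31, and its spot on KO 3 was marked as an outlier and left out. Both probes put WT 4 highest and WT 1 and WT 2 low, and they differed most on KO 4. Their differences between KO and WT were -0.23 ± 0.22 and -0.03 ± 0.24 (SE; limma adjusted p = 0.551 and 0.957), the second from 3 KO arrays. Without WT 4 they were 0.0028 and 0.20.

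Endothelial markers had their highest sum on the array where Ednrb was highest, but did not follow its order on the KO arrays. The summed normalised Cy5 signal of 15 endothelial markers was 31897, 35587, 41484 and 78324 on WT 1 to WT 4. On KO 1 to KO 4 it was 50047, 52899, 53632 and 44936. All 15 markers were above background on all 8 arrays, 10 had a positive and 5 a negative difference, the median was 0.18, and 0 were called. WT 4 led for the sum and for both Ednrb probes, while WT 1 and WT 2 had the lowest sums. Every KO array had a higher sum than WT 3, yet both Ednrb probes, where read, were lower there than the 0.46 of WT 3. The first Ednrb probe was lowest of all arrays on KO 4. Edn1, itself known from endothelium, was highest among the WT arrays on WT 4 too. The endothelial sums of all KO arrays lay below that of WT 4 and above those of WT 1, WT 2 and WT 3. On the scale of these sums, normalised Cy5 as log2, Edn1 was 7.45 on WT 4, above it on KO 1, KO 2 and KO 4 with up to 8.22, and below it on KO 3 at 6.87. The part of these cells in the Ednrb and Edn1 values was not tested.

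**Figure D3:**
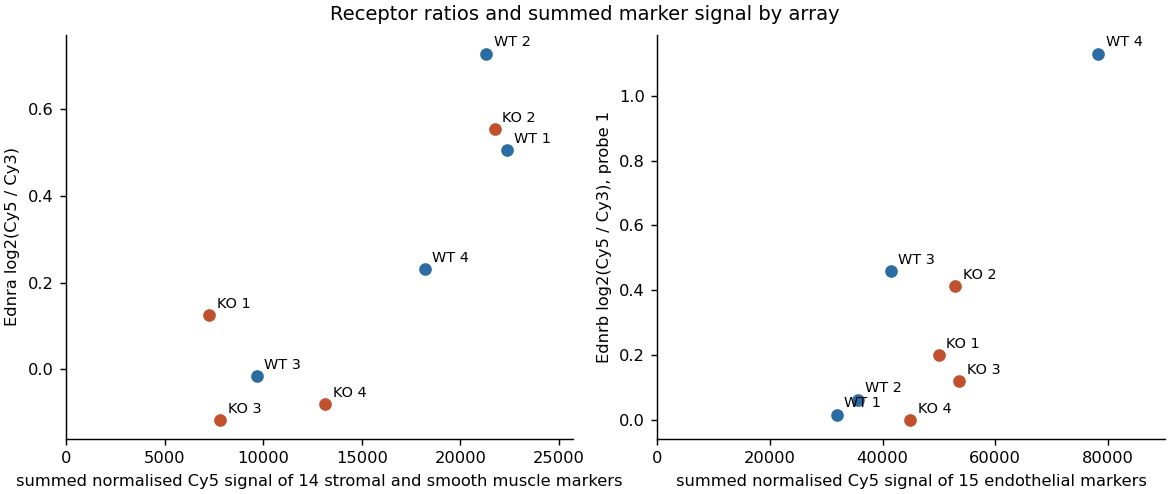
Log2 ratio of Ednra against the summed normalised Cy5 signal of 14 stromal and smooth muscle markers (left), and of Ednrb, first probe, against that of 15 endothelial markers (right), with 1 labelled point per array, WT in blue and KO in orange. Ednra is highest on the 4 arrays with sums from 18200 to 22368, and Ednrb on WT 4, where the endothelial sum is 78324.

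Ece1 encodes the main endothelin-converting enzyme, a membrane metalloprotease. Its log2 ratio, as processed here, was lower on every KO array than on any WT array, by a narrow margin. Ece1 (NM_199307) had log2 ratios of 0.03, 0.38, 0.33 and 0.60 on WT 1 to WT 4. On KO 1 to KO 4 its ratios were -0.17, 0.02, -0.21 and -0.60. The gap between the groups lay between KO 2 and WT 1. The means were 0.33 ± 0.23 in WT and -0.24 ± 0.26 in KO (SD, n = 4 each), a log2 difference of -0.57 ± 0.15 (SE), or 1.49-fold lower, with a limma adjusted p of 0.109. Among all probes with 8 values, 7.82% had every KO array below every WT array, and 5.87% of the probes tested differed by more in either direction. With the scanner's own ratio the groups met, with KO 3 at 0.03 above WT 1 at -0.18. In normalised Cy5 on the log2 scale they met too, with KO 3 at 8.62 above WT 1 at 8.48. Without KO 2 the difference was -0.66 with a limma adjusted p of 0.0168, in the fit that called 21.3% of all probes. When any 1 other array was left out, the limma adjusted p of Ece1 lay between 0.189 (without KO 3) and 0.256 (without KO 4). Raw Cy5 for Ece1 was 660 to 979 on WT, and 536, 696, 1951 and 440 on KO 1 to KO 4, with the bright KO 3 array at the top in both channels.

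Ece2 encodes a related converting enzyme known chiefly from neural tissue. Ece2 (NM_139293) had log2 ratios of 0.31, 0.34, 0.17 and 0.08 on WT 1 to WT 4. On KO 1 to KO 4 they were 0.17, -0.06, -0.06 and 0.23. The groups overlapped, and the difference was -0.16 ± 0.10 (SE, n = 4 per group; limma adjusted p = 0.378). The Ece2 signal was low, with raw Cy5 between 83.5 and 116 on all arrays but KO 3, and its reference channel was above background on 1 array only. The scanner's own ratio gave a difference of -1.54 (adjusted p = 0.165) for the same spots.

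The array of WT 3 carried one RNA in both channels, where a ratio free of dye effects would be 0. On it Ednrb read 0.46 at both probes, Ece1 0.33, Ece2 0.17 and Edn1 0.11, while Edn2, Edn3 and Ednra read between -0.07 and -0.01. Over all probes tested the median size of this ratio was 0.15 and 90% were under 0.45. Both Ednrb probes thus departed from 0 by more than 90% of all probes did. A single such array cannot tell a dye effect from the noise of one hybridisation, and whether the other arrays share these offsets was not tested.

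**Figure D4:**
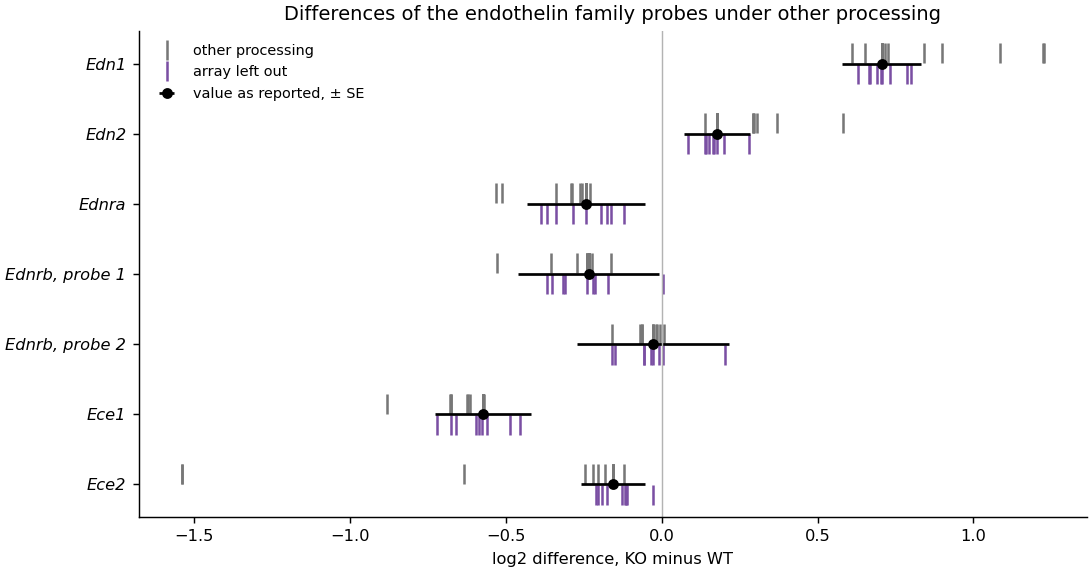
Log2 difference between KO and WT for the 7 endothelin family probes that passed the filter (black points ± SE), with grey marks for other ways of processing and purple marks for fits without 1 array or without KO 2 and KO 3. Edn1 stays between 0.61 and 1.22 and Ece1 between -0.88 and -0.45, and both Ednrb probes have marks on either side of 0.

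Genes around the family were read from 4 lists, and 0 of their 69 tested members were called in either direction. In each list, 1 or 2 tested members had every KO array above every WT array, and 0 or 1 had every KO array below. Over all probes with 8 values, 3.58% lay above in this way and 7.82% below, and the groups that did not overlap are to be read beside these shares. Enzymes of endothelin maturation and clearance had a median difference of -0.09 over 8 tested members of 10, against -0.02 over all probes tested, with 2 members above and 6 below 0. Kel, a metalloprotease known to cut endothelin precursors, had log2 ratios of -0.03, -0.09, -0.07 and 0.10 on WT 1 to WT 4. Kel in KO 1 to KO 4 had 0.30, 0.17, 0.35 and 0.34. The groups did not overlap, and the difference was 0.31 ± 0.08 (SE; limma adjusted p = 0.109), or -0.06 with Cy5 alone, which moved the median of all probes to -0.18 and left Kel 0.12 above it. The gelatinase gene Mmp2 had -0.50 ± 0.21, with KO 2 at 0.62 among the WT arrays. The proprotein convertase genes Pcsk6 and Pcsk5 had 0.25 ± 0.16 and -0.17 ± 0.14 (SE, n = 4 per group), and Pcsk6 read -0.02 with median centring and -0.15 with Cy5 alone, 0.26 and 0.04 above the medians of all probes there. The furin gene itself, Furin, had -0.13 ± 0.15 and is named outside the rule, after its values were seen, as the enzyme best known for the first cut.

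Genes of receptor signalling were balanced, with 13 of 26 tested members above 0, 13 below and a median of -0.01. Gnai2, an inhibitory G protein subunit, had log2 ratios of 0.29, 0.33, 0.18 and 0.56 on WT 1 to WT 4. Gnai2 in KO 1 to KO 4 had -0.21, 0.18, -0.06 and -0.34. The groups did not overlap, with KO 2 just under WT 3, and the difference was -0.45 ± 0.13 (SE; limma adjusted p = 0.114). Gna11, a subunit that activates phospholipase C, had -0.34 ± 0.11, with KO 2 at 0.26 inside the WT range. The inositol trisphosphate receptor genes Itpr3 and Itpr1 had 0.37 ± 0.12 and 0.44 ± 0.16 (SE, n = 4 per group), or -0.18 and -0.03 with median centring, which is 0.10 and 0.25 above the median of all probes there. Itpr3 was -0.44 on KO 2, beside -0.50 to -0.45 on the WT arrays, and between -0.03 and 0.10 on the other KO arrays.

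Collecting duct effectors, among them sodium channel, water channel, prostaglandin and nitric oxide genes, had 8 of 16 tested members above 0 and a median of 0.01. Sgk1, a kinase that raises sodium channel activity, had log2 ratios of -0.60, -0.63, 0.11 and 0.65 on WT 1 to WT 4. Sgk1 in KO 1 to KO 4 had 0.70, 0.84, 1.03 and 1.61. The groups did not overlap, though WT 4 came close to KO 1, and the difference was 1.16 ± 0.30 (SE), or 2.24-fold (limma adjusted p = 0.108). Adcy6, the adenylyl cyclase of vasopressin signalling, had 0.56 ± 0.15, with KO 2 at 0.13 against 0.68 to 0.78 on the other KO arrays. Ptges, a prostaglandin E synthase, had 0.75 ± 0.23 with KO 2 at -0.08, and -0.18 at its other probe. Nedd4l, the ubiquitin ligase that removes sodium channels, had 0.34 ± 0.11 (0.23 at its other probe), or -0.08 with median centring, 0.20 above the median of all probes there.

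Genes known to act on Edn1 transcription had 9 of 19 members above 0, 10 below and a median of -0.0015. Per1, a clock gene, had log2 ratios of -0.60, -0.05, -0.12 and -0.16 on WT 1 to WT 4. Per1 in KO 1 to KO 4 had 0.40, 0.13, 0.42 and 1.02. The groups did not overlap, and the difference was 0.72 ± 0.19 (SE; limma adjusted p = 0.109). Nr3c1, the glucocorticoid receptor gene, had 0.54 ± 0.15, but -0.41 at its other probe. The osmotic response factor gene Nfat5 had 0.44 ± 0.14, and the histone deacetylase gene Hdac2 -0.23 ± 0.08 with no overlap between the groups.

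**Figure D5:**
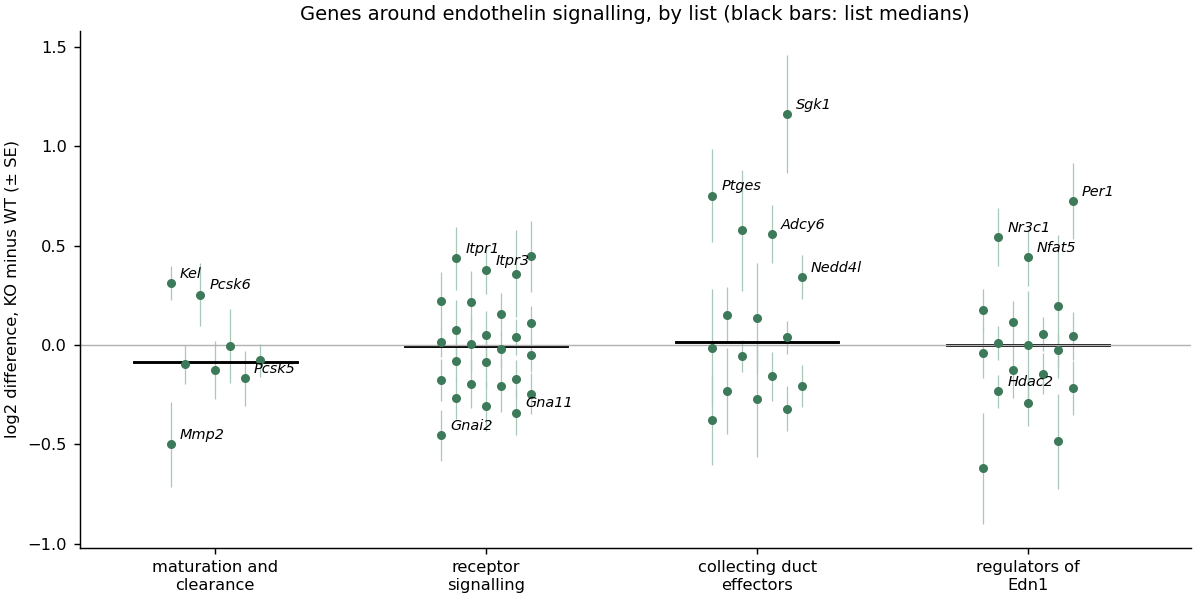
Log2 difference between KO and WT (± SE) for each tested gene of 4 lists around endothelin signalling, from 4 WT and 4 KO arrays except Arrb2, Nos1 and Nr3c2 with 3 KO arrays, with the genes named in the text labelled and black bars at the list medians. The medians lie between -0.09 and 0.01, and no gene passed an adjusted p of 0.05.

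KO 2 was placed differently by different genes of this group. For Edn1, Edn2, Kel, Sgk1 and Per1, KO 2 lay above all WT arrays, and for Nedd4l, Nr3c1 and Itpr3 just above them. For Ece1, Ece2, Gnai2 and Hdac2, KO 2 lay below all WT arrays. KO 2 lay inside the WT range for Edn3, Ednra, both Ednrb probes, Itpr1, Ptges, Adcy6, Gna11 and Mmp2. The same held for Pcsk5, Pcsk6, Nfat5 and Dot1l. Leaving out KO 2 raised the number of called list genes from 0 to 17, 11 higher and 6 lower in KO, while the share of all probes called rose to 9.76% higher and 11.5% lower.

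The genes whose ratios were most like those of Edn1 over the 8 arrays were found among 13512 named genes, each read at its brightest probe. Pearson's r exceeded 0.9 for 32 genes and was under -0.9 for 20, and it mixes the difference between the groups with the spread within them. Spns2, a sphingosine-1-phosphate transporter, was most alike with r = 0.982. Spns2 read -0.0028, -0.04, 0.10 and 0.39 on WT 1 to WT 4, and 0.80, 0.93, 0.61 and 0.96 on KO 1 to KO 4. Like Edn1 it was highest of the WT arrays on WT 4 and lowest of the KO arrays on KO 3. After the group means were removed r was 0.896 for Spns2, on the same 8 arrays by which it was picked. For the genes named next it was then 0.72 to 0.83 for those alike and -0.82 to -0.58 for those opposed. Ccdc9b (r = 0.968), Gsap (0.960), the secreted phospholipase gene Pla2g5 (0.953) and the glutathione transferase gene Gstm2 (0.950) followed, with differences of 0.72, 0.41, 0.70 and 0.41 between KO and WT. The most opposed genes were Tada2b (-0.952), a subunit of histone acetylase complexes, the neuroligin gene Nlgn3 (-0.949), the chemokine gene Ccl4 (-0.946), Scpep1 (-0.943) and the DNA repair gene Xrcc2 (-0.935), with differences of -0.19, -0.46, -0.58, -0.70 and -0.43. All 10 genes had groups that did not overlap, which an r of this size with Edn1 favours.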

How the data were processed

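Cy5 and Cy3 were read from 8 deposited scanner files, which hold the authors' intensity values per spot (software, per the submitters' processing notes: Agilent Feature Extraction, version 10.7.3.1). The files also hold the authors' log10 ratio, background-subtracted and dye-normalised per the file headers, and the deposited series value table repeats it (r of at least 0.999999). From median intensities, normexp (offset 50) and loess within each array gave log2 ratios of the deposited signals in limma 3.58.1 under R 4.3.3. Outlier-marked spots were removed and a probe's remaining spots averaged. Probes needed Cy5 well above background on 4 or more of 8 arrays and values on 3 or more arrays per group, which left 31329 of 55681. Each probe was fitted in limma (lmFit, eBayes; 2-sided), and p-values were adjusted by Benjamini-Hochberg over all of them, with 0.05 as the threshold. Names came from RefSeq (GRCm38.p6), which matched 21717 of 37850 systematic names; the array annotation is for mm9. Members and lists were chosen with earlier results of these data known. From each list the 4 genes with the smallest p are named, and the 5 genes most and least like Edn1. The labels do not say that equal numbers mark pairs, and the numbers were not used as pairs in the main fit. Taken over the probes with 8 values, same-numbered samples did not deviate together, which does not settle it for single genes. Alternatives were other background corrections, normalisations, filters, probe rules and fits, the replicate number as a block, and arrays left out. The fit was also run on simulated data with added changes and noise drawn independently for each probe and array. That simulation held no effect shared by the probes of an array, so it does not bear on the changes seen when arrays were left out. Data handling used version 1.17.8 of data.table and 2.0.0 of jsonlite, and figures matplotlib 3.10.9. The number of arrays limits the precision.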

Additional observations from a re-analysis of the deposited data

Results flagged for a closer look

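Among the 15 groups of 4 member values examined, 1 held a sample far from the others. The log2 ratio of Edn2 on KO 4 was -0.17, while KO 1, KO 2 and KO 3 lay between 0.21 and 0.25. Chance marks about 1 in 20 such groups.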

How the results depend on the processing

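The differences of Edn1, Edn2, Ednra, Ece1 and Ece2 kept their direction in every alternative run. Those of Ednrb turned at the first probe to 0.0028 without WT 4, and at the second to 0.20 without WT 4, 0.0037 without KO 4 and 0.0070 with array weights; its range without 1 array was -0.37 to 0.0028 at the first and -0.16 to 0.20 at the second. The 2 probes called over the whole table became 1 with an offset of 0, without background subtraction, with the scanner's ratio, with the series value table and with the mean over probes of a gene, 0 with median centring or Cy5 alone, 6 with scaling between arrays, 4 without the filter, 19 with an intensity trend and 5133 with array weights. With the replicate number as a block it was 0, and the block called no member. In the block fit the limma adjusted p fell for Ednra, from 0.459 to 0.189, and rose for every other member tested there. The correlations of deviations between same-numbered samples ran from -0.21 to 0.11. These values cannot tell whether same-numbered samples shared a litter or batch, and the labels do not say. Leaving out 1 array gave 1 to 6676 called probes, 0 to 2 members and 0 to 17 list genes, the highest always without KO 2. Without KO 2 and KO 3 together these counts were 7414, 2 and 15, and with array weights 2 members and 13 list genes were called, where 16.4% of all probes were; the members called in these fits were Edn1 and Ece1. The cause of these changes was not tested. Median centring moved the median difference of all probes to -0.28 and Cy5 alone to -0.18, and other differences under these 2 settings should be read against it. Of the alternatives, the comparison of Edn3 with the WT floor without KO 3 was chosen after seeing the data. Low signal over background limits the values of Edn2, Edn3 and Ece2.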
